A study of Mus musculus with 8 samples.

Results

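The transcripts described here encode enzymes that assemble triglyceride in the liver, by the glycerol-3-phosphate route or from monoacylglycerol: Gpam, Gpat4, Agpat2, Agpat3, Lpin1, Lpin2, Dgat1, Dgat2 and Mogat1, together with the lipid droplet protein Pnpla3. They were taken by gene symbol from a table of 45777 genes, in which all 10 symbols occur, and all 10 were among the 15686 genes that passed a filter on low counts. The rule itself uses only gene symbols, but the 10 genes were chosen with earlier results of these data known. Whole liver RNA was sequenced from male C57BL6 mice in 2 groups of 4 libraries. The C2-AKT group came from ROSA26-C2-AKT mice crossed with Alb-Cre mice, in which the albumin promoter restricts Cre, and with it the C2-AKT transgene, to hepatocytes. The control group is labelled wild type, C2-AKT (-/-), and the labels do not state whether its mice carried Cre or which AKT isoform the transgene encodes. Both groups were fed a high-fat diet for 10 weeks from 8 weeks of age, so no lean group enters any comparison. Library titles carry a first number of 4 in C2-AKT and of 2 in control libraries, so an effect of what that number means and an effect of genotype cannot be told apart. Whether the libraries are from separate animals is not in the labels, and p-values measure only the spread between libraries, which may be technical.

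Triglyceride assembly starts when an acyl group is joined to glycerol-3-phosphate, which gives lysophosphatidic acid. A second acylation gives phosphatidic acid, the lipins remove its phosphate to leave diacylglycerol, and a last acylation gives triglyceride. Monoacylglycerol acyltransferases reach diacylglycerol by a shorter path. In liver the product is stored in lipid droplets or secreted in very low density lipoprotein, and insulin, which signals through AKT, is known to raise fatty acid synthesis and esterification through the transcription factor SREBP-1.

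No difference between C2-AKT and control livers was detected for any of the 10 transcripts. With edgeR's quasi-likelihood test and Benjamini-Hochberg adjustment over all 15686 genes, 0 of the 10 were called at an adjusted p of 0.05 in either direction. The same test called 4 genes of the whole table, all lower, which is 0.0255% of the genes tested. At an unadjusted p under 0.05, 0 of the 10 passed, against 5.13% of all genes tested. DESeq2 called 0 of the 10, with 1 at an unadjusted p under 0.05 (Gpat4), while it called 0.185% of genes higher and 0.173% lower. Limma-voom called 0 of the 10 and had 0 at an unadjusted p under 0.05. Over up to 21 alternative settings per member, adjusted p-values ran from 0.579 to 1.0. In 3 of the 10 the C2-AKT value was above the control value and in 7 it was below, with a median log2 fold change of -0.04, against -0.01 over all genes tested. The values of the groups overlapped for all 10 members, while among all genes tested they did not overlap in 2.98%, with 1.35% higher and 1.63% lower.

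The precision behind these values differed between members. The 95% interval of the log2 fold change lay inside a 2-fold change in either direction for 8 of the 10, all but Mogat1 and Pnpla3. It lay inside a 1.5-fold change for 7 of the 10, Lpin1 being the third exception. A missed threshold does not show that the groups are alike, and the intervals give the size of change that these 8 libraries leave possible. Whole liver was sequenced, so fewer cells of a type and less RNA per cell cannot be told apart in any of these values.

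Total counts ran from 51.4 to 63.8 M (mega) per library. All 7 hepatocyte markers were detected in every library and made up 6.70 to 9.35% of counts in C2-AKT and 6.91 to 8.67% in control libraries. The 10 markers of pancreatic acinar cells, transcripts of digestive proteins, made up 9.20% of counts in C2-AKT replicate 5, against 0.000747 to 0.00276% in the other 7 libraries. The count filter removed 17.2% of the counts of C2-AKT replicate 5, against 0.032 to 0.0478% in the other 7. The CPM (counts of a gene per M counts of the library) below are scaled by the trimmed mean of M-values (TMM) over genes that passed the filter, whereas the length-scaled TPM of C2-AKT replicate 5 still contain the acinar share. The acinar marker Cela1 was at 7.36 to 14.2 CPM of all counts in control livers. Acinar reads of genes also found in liver can thus remain in the CPM. In CPM without C2-AKT replicate 5 the log2 fold changes of Gpam, Gpat4, Lpin1 and Mogat1 were 0.15, -0.16, 0.38 and -0.47, and 0 of the 10 members were called. Agpat2, Agpat3 and Dgat1 were at -0.03, 0.04 and -0.06. Pnpla3 moved from -0.38 over all 8 libraries to -0.69, and Lpin2 and Dgat2 turned from -0.03 to 0.10 and 0.02.

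**Figure D1:**
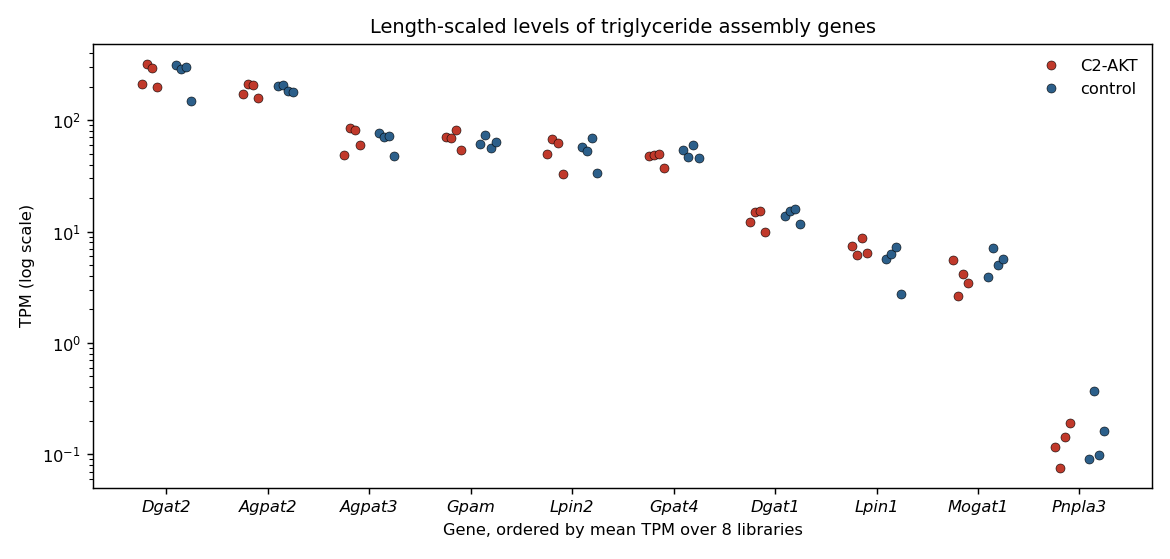
Level of each of the 10 transcripts on a log axis in TPM, a measure per transcript length, with 1 point per library and the 4 C2-AKT libraries drawn beside the 4 control libraries of the same gene. Dgat2 and Agpat2 stand at the top with mean values near 257 and 187 TPM in C2-AKT livers, against 262 and 193 TPM in control livers, and Pnpla3 lies lowest in both groups.

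Per transcript length, the 10 members spanned a range from Dgat2, the most abundant, to Pnpla3, the least. Dgat2 averaged 256.6 ± 60.0 TPM in C2-AKT and 261.9 ± 77.0 TPM in control livers (SD, n = 4 each), and 97.3% of tested genes had a lower mean TPM. Agpat2 followed with 187.4 ± 25.7 TPM in C2-AKT and 193.0 ± 14.9 TPM in control livers. These were the only members above 100 TPM on average, and Dgat2 alone made up 36.2 ± 2.07% of the TPM summed over the 10 members in C2-AKT livers and 35.9 ± 5.66% in control livers. Agpat3, Gpam, Lpin2 and Gpat4 lay between 45.9 and 68.9 TPM in C2-AKT livers and between 51.5 and 66.5 TPM in control livers. Dgat1 averaged 13.1 ± 2.53 TPM in C2-AKT and 14.2 ± 1.84 TPM in control livers, and Lpin1 averaged 7.18 ± 1.17 TPM in C2-AKT and 5.50 ± 1.97 TPM in control livers. Mogat1 averaged 3.96 ± 1.24 TPM in C2-AKT and 5.43 ± 1.36 TPM in control livers. Pnpla3 was at 0.131 ± 0.0479 TPM in C2-AKT and 0.181 ± 0.131 TPM in control livers, above only 5.1% of tested genes. Not every neighbour in this order was separated by more than the spread over libraries. Ranges over the 8 libraries did not overlap between Agpat2 and Agpat3, between Gpat4 and Dgat1, between Dgat1 and Lpin1, or between Mogat1 and Pnpla3. Dgat2 exceeded Agpat2 in 7 of 8 libraries, whereas Agpat3 exceeded Gpam in only 4 of 8.

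Positions are from the RefSeq annotation of the mouse build GRCm38.p6, in which Dgat1 and Pnpla3 share a chromosome and each other member has one to itself. Of the enzymes of the first steps, Gpam spans bases 55067635 to 55127319 of chromosome 19, Gpat4 bases 23171265 to 23208453 of chromosome 8, Agpat2 bases 26593057 to 26604417 of chromosome 2 and Agpat3 bases 78269174 to 78352497 of chromosome 10. Lpin1 spans bases 16535669 to 16653903 of chromosome 12 and Lpin2 bases 71183532 to 71249818 of chromosome 17. Mogat1 spans bases 78511060 to 78606964 of chromosome 1, Dgat1 bases 76502012 to 76512021 of chromosome 15 and Dgat2 bases 99153663 to 99182713 of chromosome 7. Pnpla3 spans bases 84167776 to 84189521 of chromosome 15. The values are per gene, with no separation of isoforms.

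The promoter windows of 4 members are given because Gpam and Pnpla3 are known targets of SREBP-1, while Lpin1 and Mogat1 had the highest and the lowest log2 fold change of the 10. Each line holds the 250 bases before a start listed by RefSeq for GRCm38.p6, 5′ to 3′ on the gene's strand, in lower case with motif matches in capitals. The Gpam window is chr19:55127239-55127488 on the minus strand, the Pnpla3 window is chr15:84167566-84167815 on the plus strand, the Lpin1 window is chr12:16610967-16611216 on the minus strand and the Mogat1 window is chr1:78510810-78511059 on the plus strand. The Lpin1 window lies inside the annotated gene, before an internal start, and the Gpam and Pnpla3 windows reach in part into the annotated genes, whose outermost starts lie further upstream.
Gpam: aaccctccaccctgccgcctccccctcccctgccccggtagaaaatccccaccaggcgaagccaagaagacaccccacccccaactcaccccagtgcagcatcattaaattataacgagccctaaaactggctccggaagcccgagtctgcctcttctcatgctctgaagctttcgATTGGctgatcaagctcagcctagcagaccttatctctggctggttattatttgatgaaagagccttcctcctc
Pnpla3: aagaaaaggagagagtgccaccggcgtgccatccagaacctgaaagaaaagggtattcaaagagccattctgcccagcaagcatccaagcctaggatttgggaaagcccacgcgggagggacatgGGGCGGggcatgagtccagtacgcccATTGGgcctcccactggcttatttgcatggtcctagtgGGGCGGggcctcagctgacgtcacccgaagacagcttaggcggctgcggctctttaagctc
Lpin1: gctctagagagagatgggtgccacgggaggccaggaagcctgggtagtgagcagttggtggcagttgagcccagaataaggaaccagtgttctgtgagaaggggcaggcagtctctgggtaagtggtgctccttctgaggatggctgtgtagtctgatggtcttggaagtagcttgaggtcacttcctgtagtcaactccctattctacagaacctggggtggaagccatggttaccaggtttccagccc
Mogat1: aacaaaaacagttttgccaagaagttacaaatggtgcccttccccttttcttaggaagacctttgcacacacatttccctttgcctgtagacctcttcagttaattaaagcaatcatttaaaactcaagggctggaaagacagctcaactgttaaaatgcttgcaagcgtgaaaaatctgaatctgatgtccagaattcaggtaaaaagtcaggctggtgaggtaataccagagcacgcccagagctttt
Both strands were searched for 6 motifs, namely the E-box CACGTG, the sterol response element TCACNCCAC, the CCAAT box, the GC box GGGCGG, the FOXO motif GTAAACA and the DR1 element of PPAR. In the Gpam window the capitals mark a CCAAT box read on the other strand, and in the Pnpla3 window they mark GC boxes and a CCAAT box read on the other strand. The Lpin1 and Mogat1 windows held no match. Over all 32851 windows of the same length, 33.9% held a CCAAT box, 32.7% a GC box, 6.02% the E-box, 3.17% the FOXO motif, 1.05% the sterol response element and 0.0335% the DR1 element. A match is a description of these letters only, and windows were at hand for 7 of the 10 members.

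The initial acylation of glycerol-3-phosphate is carried out by Gpam, the mitochondrial acyltransferase, and by Gpat4, an acyltransferase of the endoplasmic reticulum. Gpam stood at 272, 237, 263 and 225 CPM in C2-AKT replicates 2, 3, 4 and 5, against 217, 262, 201 and 247 CPM in control replicates 2, 3, 4 and 5. The 2 highest values were from C2-AKT livers, but the lowest C2-AKT values lay among the control values. Gpam averaged 249.4 ± 22 CPM in C2-AKT and 231.5 ± 27.7 CPM in control livers (SD, n = 4 each), a log2 fold change of 0.11 ± 0.12 (SE; 95% interval -0.15 to 0.37), with an adjusted p of 0.9999 in edgeR. Gpat4 stood at 126.5, 115.9, 117.4 and 103.8 CPM in C2-AKT livers, against 137.3, 120.4, 146.5 and 133.2 CPM in control livers, in the same order of replicates. In 3 of the 4 C2-AKT livers Gpat4 was below every control liver, and C2-AKT replicate 2 lay above control replicate 3. Gpat4 averaged 115.9 ± 9.34 CPM in C2-AKT and 134.4 ± 10.8 CPM in control livers, a log2 fold change of -0.21 ± 0.10 (SE; 95% interval -0.43 to 0.005). This was the lowest p of the 10 members, 0.0541 unadjusted and 0.974 adjusted over all genes in edgeR, and 0.878 adjusted in DESeq2.

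The level of Gpam relative to Gpat4 was given by the ratio of their TPM, which was 1.51, 1.41, 1.63 and 1.45 in C2-AKT livers, against 1.13, 1.57, 0.944 and 1.40 in control livers. Control replicate 4 was the only library with less Gpam than Gpat4 per transcript length. The ratio averaged 1.497 ± 0.0965 in C2-AKT and 1.26 ± 0.277 in control livers (SD, n = 4 each), and the groups overlapped. No test was run on this ratio.

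The acyl group at the second position is added by Agpat2, an acyltransferase whose loss causes lipodystrophy, and by Agpat3, which also serves phospholipid synthesis. Agpat2 was the steadiest of the 10 transcripts, with its highest library 1.14-fold above its lowest. It stood at 162, 184, 164 and 167 CPM in C2-AKT livers, against 179, 183, 162 and 172 CPM in control livers. The values of the groups were interleaved. Agpat2 averaged 169.4 ± 10.0 CPM in C2-AKT and 174.1 ± 9.31 CPM in control livers, a log2 fold change of -0.04 ± 0.09 (SE; 95% interval -0.24 to 0.16). Agpat3 stood at 170, 272, 256 and 242 CPM in C2-AKT livers, against 248, 239, 244 and 174 CPM in control livers. One library in each group, C2-AKT replicate 2 and control replicate 5, lay well below the other 6. Agpat3 averaged 234.9 ± 45.2 CPM in C2-AKT and 226.2 ± 35.2 CPM in control livers, a log2 fold change of 0.05 ± 0.17 (SE; 95% interval -0.32 to 0.43).

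Phosphatidic acid is dephosphorylated by the lipins. Lpin1 is also known as a transcriptional partner of PGC-1alpha and PPARalpha and is induced by fasting, and Lpin2 is known as a main lipin of the liver. Lpin1 stood at 25.4, 19.0, 25.6 and 24.6 CPM in C2-AKT livers, against 18.1, 20.3, 23.6 and 9.54 CPM in control livers. In 3 of the 4 C2-AKT livers Lpin1 was above every control liver, C2-AKT replicate 3 lay among the control values, and control replicate 5 was the lowest of the 8. Lpin1 averaged 23.7 ± 3.16 CPM in C2-AKT and 17.9 ± 5.999 CPM in control livers, a log2 fold change of 0.40 ± 0.24 (SE; 95% interval -0.12 to 0.93), with an unadjusted p of 0.119 and an adjusted p of 0.9999 in edgeR. Without control replicate 5 the Lpin1 value was 0.19, and the lowest unadjusted p was 0.0428, without control replicate 4 (log2 fold change 0.56, adjusted p 0.89). Lpin2 stood at 177, 216, 189 and 128 CPM in C2-AKT livers, against 192, 175, 234 and 122 CPM in control livers. Each group held 1 low library, C2-AKT replicate 5 and control replicate 5. Lpin2 averaged 177.7 ± 37.1 CPM in C2-AKT and 180.8 ± 46.5 CPM in control livers, a log2 fold change of -0.03 ± 0.21 (SE; 95% interval -0.49 to 0.44).

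Per transcript length, Lpin2 exceeded Lpin1 in every library. Their TPM ratio was 6.74, 10.97, 7.11 and 5.05 in C2-AKT livers, against 10.2, 8.30, 9.59 and 12.3 in control livers. The ratio was lower in 3 of the 4 C2-AKT livers than in every control liver, and C2-AKT replicate 3 lay between control values. It averaged 7.468 ± 2.503 in C2-AKT and 10.1 ± 1.667 in control livers (SD, n = 4 each), and no test was run on it.

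The last acylation is carried out by Dgat1 and Dgat2, enzymes of unrelated sequence. Dgat2 is known for esterifying newly made fatty acids in liver, and Dgat1 for re-esterifying those taken up or released by lipolysis. Dgat1 stood at 14.7, 16.2, 15.5 and 12.9 CPM in C2-AKT livers, against 15.3, 17.1, 17.9 and 14.3 CPM in control livers, with only C2-AKT replicate 5 below every control liver. Dgat1 averaged 14.8 ± 1.40 CPM in C2-AKT and 16.1 ± 1.63 CPM in control livers, a log2 fold change of -0.12 ± 0.11 (SE; 95% interval -0.36 to 0.12). Dgat2 stood at 294, 399, 352 and 303 CPM in C2-AKT livers, against 404, 374, 390 and 209 CPM in control livers. Control replicate 5 was the lowest of the 8, and the other 7 libraries of both groups were interleaved. Dgat2 averaged 336.9 ± 48.4 CPM in C2-AKT and 344.3 ± 91.1 CPM in control livers, a log2 fold change of -0.03 ± 0.20 (SE; 95% interval -0.48 to 0.42). The ratio of Dgat2 to Dgat1 in TPM was 17.2, 21.2, 19.6 and 20.2 in C2-AKT livers, against 22.8, 18.9, 18.9 and 12.5 in control livers. Dgat2 was thus the more abundant in every library.

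Mogat1, which acylates monoacylglycerol, is known to be low in lean mouse liver and induced in fatty liver through PPAR gamma. Mogat1 stood at 4.17, 1.86, 2.59 and 2.96 CPM in C2-AKT livers, against 2.82, 5.19, 3.45 and 4.49 CPM in control livers. The lowest 2 values were C2-AKT and the highest 2 were control, but C2-AKT replicate 2 was the third highest of the 8. Mogat1 averaged 2.90 ± 0.965 CPM in C2-AKT and 3.99 ± 1.06 CPM in control livers, a log2 fold change of -0.46 ± 0.27 (SE; 95% interval -1.05 to 0.13), with an unadjusted p of 0.114 and an adjusted p of 0.9999 in edgeR. The value was -0.69 without C2-AKT replicate 2, with an unadjusted p of 0.0216 and an adjusted p of 0.652. It was -0.30 without C2-AKT replicate 3 and -0.31 without control replicate 3. Over the 21 alternative settings tried, the lowest adjusted p of any member was 0.579, for Mogat1 with the kind of library title as a term in the edgeR model.

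Pnpla3, or adiponutrin, is a lipid droplet protein related to adipose triglyceride lipase, and in mice it is known for expression in fat and for induction by feeding in liver. Pnpla3 was near the limit of detection here, with 11 to 54 counts per library. It stood at 0.354, 0.207, 0.392 and 0.649 CPM in C2-AKT livers, against 0.263, 1.03, 0.285 and 0.499 CPM in control livers. Control replicate 3 was the highest of the 8 and C2-AKT replicate 5 the next. Pnpla3 averaged 0.401 ± 0.184 CPM in C2-AKT and 0.521 ± 0.359 CPM in control livers, a log2 fold change of -0.38 ± 0.50 (SE; 95% interval -1.5 to 0.74). Its direction turned without control replicate 3, to 0.19. The annotated pseudogene Gm20369 lies inside the Pnpla3 interval and had 20 to 41 counts per library. The sources used here do not give the strand setting of the counts, so reads of Pnpla3 and of Gm20369 may not be told apart and the Pnpla3 values are uncertain. For Gpam the overlapping long noncoding RNA Gm31418 had 80 to 155 counts, which is small beside the 10398 to 17448 counts of Gpam.

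**Figure D2:**
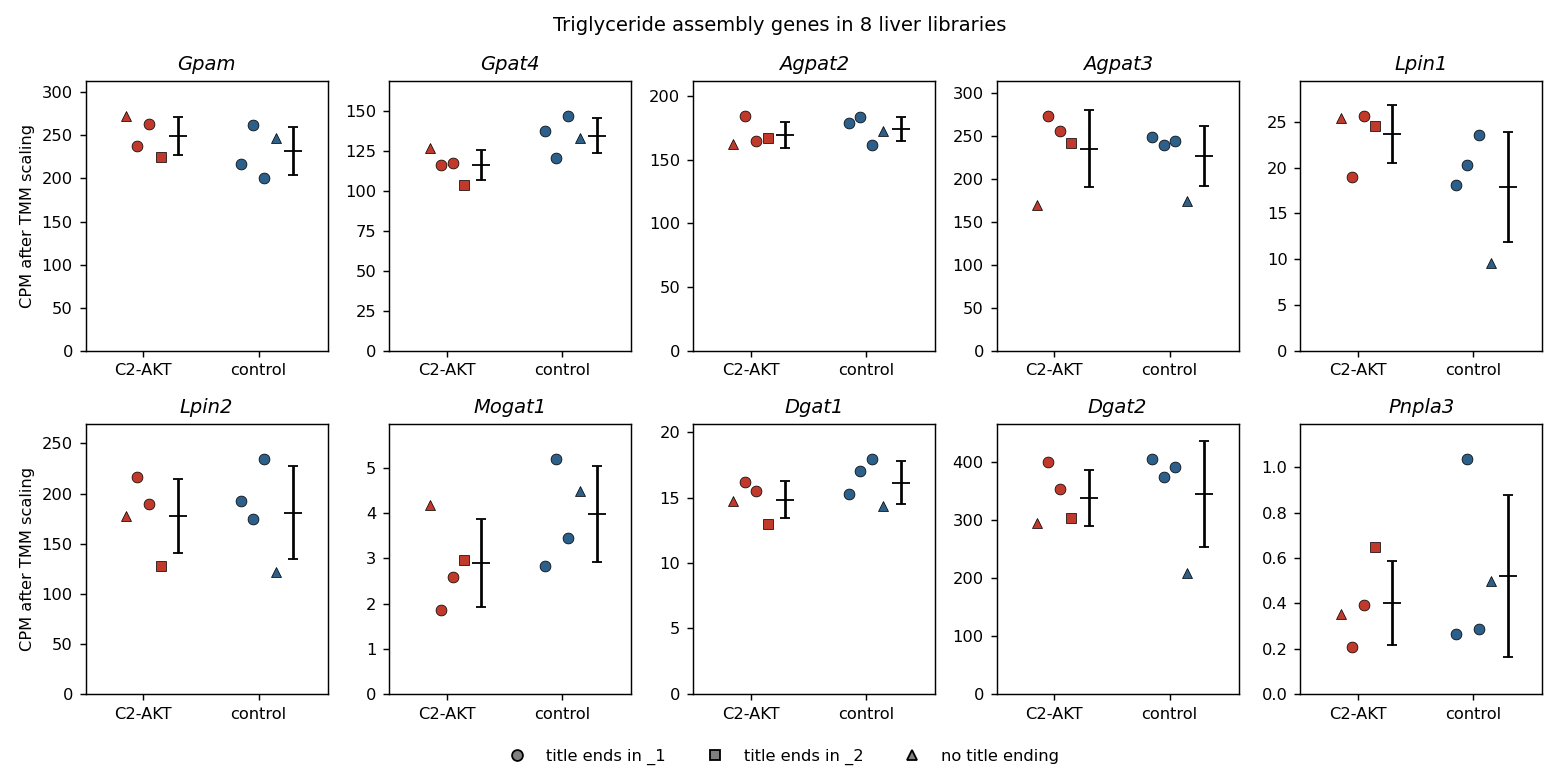
CPM of each of the 10 transcripts in each of the 8 libraries, 1 panel per gene, with C2-AKT points left of control points, bars for the mean and SD of each group (n = 4) and a marker shape for the kind of library title. The groups overlap in every panel, and the libraries without a title ending hold the lowest values of Agpat3 in both groups, 170 CPM in C2-AKT and 174 CPM in control livers.

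**Figure D3:**
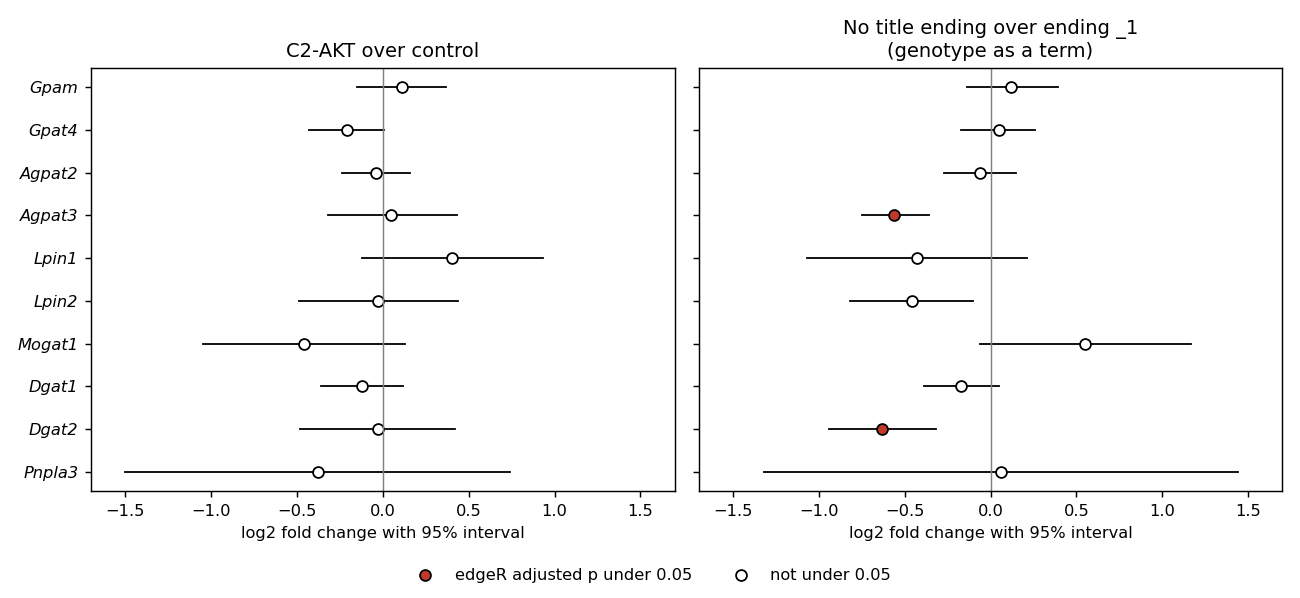
Log2 fold change with its 95% interval from edgeR for each of the 10 transcripts, for C2-AKT over control on the left and for libraries with no title ending over those ending in _1, with genotype as a term, on the right; filled points have an adjusted p under 0.05. On the left every interval includes 0, from 0.40 for Lpin1 to -0.46 for Mogat1, and on the right Agpat3 (-0.56) and Dgat2 (-0.63) are filled.

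Summed over steps, the glycerol-3-phosphate route had a log2 ratio of C2-AKT over control of 0.01, the last step one of -0.04 and the monoacylglycerol route, which is Mogat1 alone, one of -0.46. The enzymes of the glycerol-3-phosphate route before the last step summed to 933.5, 1045, 1015 and 889.7 CPM in C2-AKT livers, against 991.8, 999.4, 1011 and 857.3 CPM in control livers. Dgat1 and Dgat2 together summed to 308.8, 414.7, 367.7 and 315.6 CPM in C2-AKT livers, against 419.1, 391.3, 408.2 and 223.1 CPM in control livers. Control replicate 5 was lowest in both sums, and without it the log2 ratios were -0.04 for the glycerol-3-phosphate route and -0.21 for the last step. Mogat1, the only member of the monoacylglycerol route, was at 1.86 to 4.17 CPM in C2-AKT livers and 2.82 to 5.19 CPM in control livers. These sums are descriptions, without a test.

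Some of the spread within groups followed the ending of the library titles. Of the C2-AKT titles 1 has no ending, 2 end in _1 and 1 ends in _2, and of the control titles 1 has no ending and 3 end in _1, and the labels do not say what the endings stand for. The libraries without an ending are C2-AKT replicate 2 and control replicate 5. With genotype as a term in edgeR, a comparison added after the values were seen, Agpat3 fell by 0.56 on the log2 scale in libraries with no ending against libraries ending in _1, with an SE of 0.08 (95% interval -0.75 to -0.36) and an adjusted p of 0.00588. Dgat2 stood at 294 CPM in C2-AKT replicate 2 and 209 CPM in control replicate 5, against 303 to 404 CPM in the other 6 libraries, and fell by 0.63 with an SE of 0.14 (95% interval -0.94 to -0.32) and an adjusted p of 0.0247. In that model 2 of the 10 members were called lower and 0 higher. Of all genes tested, 8.31% were called lower and 1.99% higher, 10.3% in all. C2-AKT replicate 5, the only library ending in _2, had its own term there and so added nothing to these log2 fold changes. Leaving it out gave Agpat3 and Dgat2 adjusted p-values of 0.00531 and 0.0236 in edgeR, and a share called lower of 8.36%. Because of that term, leaving it out is no check of the comparison. The other 8 members did not pass, among them Lpin2 with -0.46 ± 0.16 (adjusted p 0.102), Lpin1 with -0.43 ± 0.28 (adjusted p 0.357) and Mogat1 with 0.55 ± 0.27 (adjusted p 0.224), each a log2 fold change with its SE in edgeR. This comparison was made because both libraries stood low in Agpat3, so for Agpat3 and Dgat2 it describes what was already seen.

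Within title endings, no member differed between the genotypes at the threshold in edgeR. C2-AKT replicate 5, alone in its ending, takes a term of its own in the model with endings and does not enter its genotype values. With the ending as a term, the log2 fold change of C2-AKT over control was 0.14 for Gpam, -0.17 for Gpat4, -0.03 for Agpat2 and 0.07 for Agpat3. It was 0.48 for Lpin1, 0.17 for Lpin2, -0.05 for Dgat1 and 0.11 for Dgat2. It was -0.57 for Mogat1 and -0.70 for Pnpla3. Among the 5 libraries whose titles end in _1, the value was 0.15 for Gpam, -0.20 for Gpat4, 0.12 for Agpat3, 0.11 for Lpin1 and -0.77 for Mogat1, the last with an unadjusted p of 0.0333 and an adjusted p of 0.594 in edgeR. Lpin2 and Dgat2, whose log2 fold changes were -0.03 over all 8 libraries, were above 0 with the ending as a term. Both were also above 0, at 0.10 and 0.02, when C2-AKT replicate 5 was left out. Among titles ending in _1, however, Lpin2 was at 0.02 and Dgat2 at -0.05, below 0. There Agpat2, Dgat1 and Pnpla3 were at 0, -0.08 and -0.78.

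Markers of fat cells were read beside Pnpla3 and Mogat1, both of which are known in mouse fat or fatty liver. The 8 adipocyte markers summed to 45.4, 25.6, 30.0 and 33.9 CPM of all counts in C2-AKT replicates 2, 3, 4 and 5, against 45.7, 76.4, 42.7 and 67.4 CPM in control replicates 2, 3, 4 and 5. At least 1 count was seen for 4, 4, 5 and 6 of the 8 markers in the C2-AKT livers, against 4, 8, 5 and 5 in the control livers. Control replicate 3, highest in both Pnpla3 and Mogat1, was the only library with all 8. Adipoq, which encodes the fat cell hormone adiponectin, was at 0, 0, 0.0627 and 0.834 CPM in C2-AKT livers, against 0, 1.87, 0.0321 and 0.0358 CPM in control livers. Lep, which encodes leptin, was at 0.649 CPM in C2-AKT replicate 5 and at 2.98 CPM in control replicate 3 and had no count in the other 6 libraries. Plin1 had counts only in control replicate 3, at 0.642 CPM. A library with no count allows up to 0.0470 to 0.0583 CPM, the level of 3 counts, a limit that covers counting error only. The order of the libraries was not the same for Mogat1, since control replicate 5 and C2-AKT replicate 2 came next after control replicate 3 in Mogat1, while both had no Lep count and Adipoq was at 0.0358 CPM and 0 in them. The part of fat cell RNA in the Pnpla3 and Mogat1 values was not tested.

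**Figure D4:**
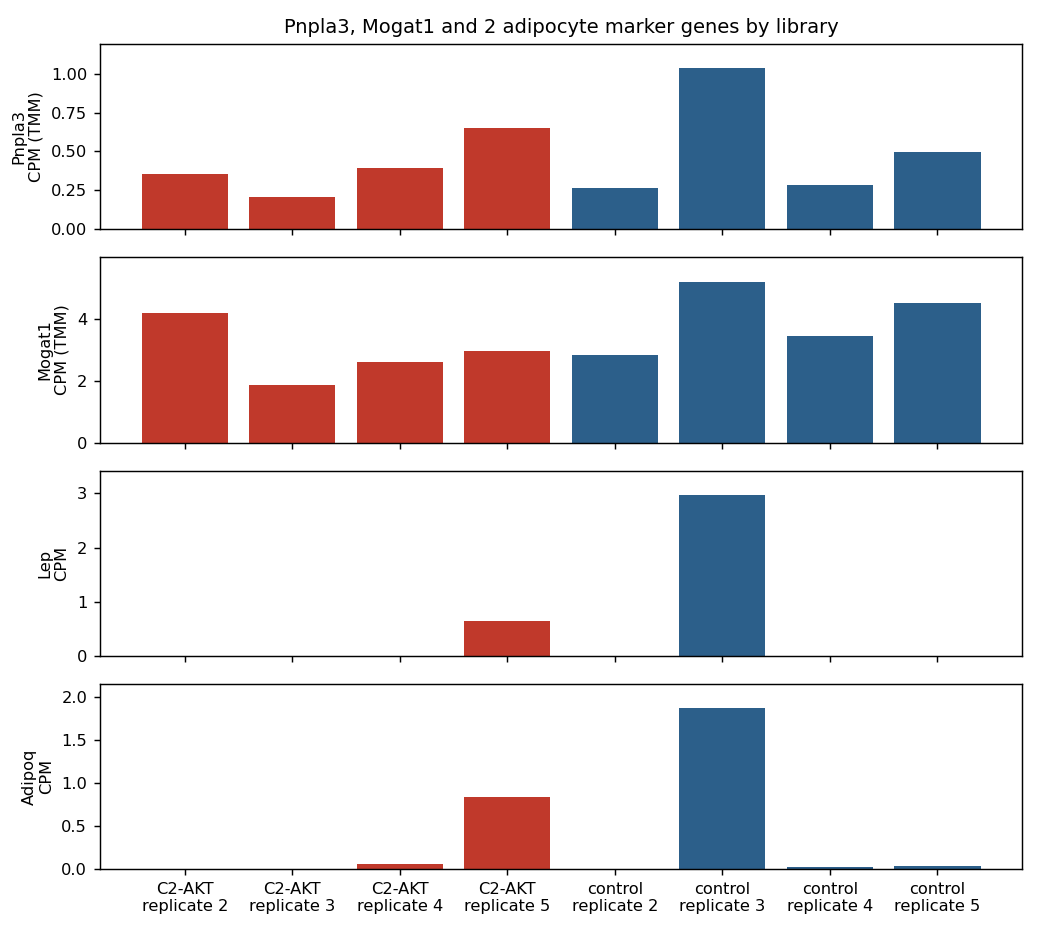
CPM of Pnpla3 and Mogat1 (after TMM scaling) and of the fat cell transcripts Lep and Adipoq (of all counts) as bars for each of the 8 libraries, with the C2-AKT libraries placed left of the control libraries. Control replicate 3 is highest in Pnpla3 (1.03 CPM), Mogat1 (5.19 CPM), Adipoq (1.87 CPM) and Lep (2.98 CPM), and C2-AKT replicate 5 is second in Pnpla3 and Adipoq.

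Genes around the 10 enzymes were read from 7 lists of genes grouped by function, which were also put together with earlier results of these data known. In edgeR 0 genes of any list were called, against 0.0255% of all genes tested, and 5.13% of all genes tested had an unadjusted p under 0.05. The list of other acyltransferases and lipins of glycerolipid assembly had 8 of 11 genes above the count filter, their log2 fold changes had a median of -0.07, and 1 of the 8 had an unadjusted p under 0.05. That gene was Lclat1, an acyltransferase that acts on lysocardiolipin, at 57.4 ± 1.43 CPM in C2-AKT and 50.6 ± 3.26 CPM in control livers (log2 fold change 0.18 ± 0.08, adjusted p 0.954 in edgeR), and its groups did not overlap. Bscl2, which encodes the droplet biogenesis protein seipin, averaged 35.03 ± 1.45 CPM in C2-AKT and 38.5 ± 2.00 CPM in control livers (log2 fold change -0.14), again without overlap. Among all genes tested the groups did not overlap in 2.98%, and in the lists they also did not overlap for Plin4 and Cidea, described below. The acyltransferases Gpat3 and Gpat2 had log2 fold changes of -0.20 and 0.36. Mboat1, Mboat2 and Mogat2 did not reach the filter, with at most 47, 8 and 35 counts in a library.

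The supply of glycerol-3-phosphate and acyl-CoA was covered by 10 genes with a median log2 fold change of 0.06. Acsl3, a long-chain acyl-CoA synthetase found on lipid droplets, had the only unadjusted p under 0.05 and averaged 13.8 ± 2.88 CPM in C2-AKT and 10.4 ± 1.497 CPM in control livers (adjusted p 0.948 in edgeR). Glycerol kinase Gk and the synthetases Acsl4 and Acsl5 had log2 fold changes of 0.14, 0.17 and 0.10. Of the 13 genes of triglyceride and ester lipolysis, none had an unadjusted p under 0.05, and the median was -0.02. Pnpla2, which encodes adipose triglyceride lipase, averaged 32.3 ± 2.43 CPM in C2-AKT and 37.5 ± 4.34 CPM in control livers (log2 fold change -0.22, unadjusted p 0.0627, adjusted p 0.993 in edgeR), and its coactivator Abhd5 had a log2 fold change of -0.15. Hormone-sensitive lipase Lipe and the carboxylesterase Ces1g had -0.33 and 0.18. The 13 genes of the phospholipid branch had a median of -0.01, with none under 0.05 unadjusted. Chpt1, which makes phosphatidylcholine from diacylglycerol, had a log2 fold change of 0.22, Pcyt1a 0.14, and the choline kinases Chkb and Chka -0.20 and -0.43.

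The 14 genes of lipogenic regulation and substrate synthesis had a median log2 fold change of 0.16, with 9 above 0 and 5 below, and 4 had an unadjusted p under 0.05, all with higher C2-AKT values, where the share over all genes tested was 5.13%. No test was made of the list as a whole. Insig1, a sterol-regulated retention protein for SREBP, averaged 76.7 ± 18.04 CPM in C2-AKT and 44.3 ± 13.7 CPM in control livers (log2 fold change 0.79 ± 0.24, adjusted p 0.779 in edgeR). Fasn, fatty acid synthase, averaged 192.5 ± 83.7 CPM in C2-AKT and 97.9 ± 44.2 CPM in control livers (log2 fold change 0.98 ± 0.37, adjusted p 0.895 in edgeR). Mid1ip1, a partner of acetyl-CoA carboxylase, and the elongase Elovl6 had 0.77 and 0.42. These are known SREBP targets, as are Gpam and Pnpla3, whose own log2 fold changes were 0.11 and -0.38. Elsewhere in the list Scd1 and Acly had 0.54 and 0.51, Acaca 0.09, Srebf1 -0.05 and Thrsp -0.21. No test compared Gpam or Pnpla3 with the genes of this list.

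The 9 genes of the PPAR gamma list, with its targets in hepatic lipid storage, had a median log2 fold change of -0.32, with 7 below 0, and 4 had an unadjusted p under 0.05, all with lower C2-AKT values, where the share over all genes tested was 5.13%. DESeq2 called 2 of the 9 lower, where it called 0.173% of all genes lower, and no test was made of the list as a whole. Plin4, a droplet coat protein, averaged 35.8 ± 3.27 CPM in C2-AKT and 65.2 ± 16.0 CPM in control livers (log2 fold change -0.87 ± 0.17, adjusted p 0.289 in edgeR and 0.00198 in DESeq2, with a range of 0.00198 to 0.993 over the alternatives). Cidea, a droplet fusion protein of brown fat and fatty liver, averaged 0.548 ± 0.508 CPM in C2-AKT and 6.03 ± 4.86 CPM in control livers (log2 fold change -3.44 ± 0.75, adjusted p 0.483 in edgeR and 0.0291 in DESeq2, the lowest over the alternatives). No alternative other than DESeq2 called Cidea. Cidec and Fitm1, which act in droplet growth and formation, had -0.84 and -0.39. The receptor gene Pparg itself had 0.09 and its target Cd36 had 0.23, both above 0, while Plin2 and Fitm2 had -0.07 and -0.01. Mogat1, a known target of the same receptor, had -0.46 with the interval given above. The adipocyte marker sums stood at 25.6 to 45.4 CPM in C2-AKT and at 42.7 to 76.4 CPM in control livers, and their part in these values was not tested. Of the 8 markers the widest range was that of Cfd, which encodes complement factor D, at 3.12 to 20.3 CPM in C2-AKT and 15.9 to 48.25 CPM in control livers. Fabp4, a fatty acid binding protein, is in both lists, at 7.43 to 9.50 CPM in C2-AKT and 8.24 to 17.7 CPM in control livers. The marker Adrb3 was at 1.91 to 9.71 CPM in C2-AKT and 4.85 to 6.57 CPM in control livers, with its highest value in a C2-AKT liver. Lipe was at 5.95 to 9.34 CPM in C2-AKT and 4.73 to 13.5 CPM in control livers. The markers Adipoq, Lep, Plin1 and Retn were at or near 0 in 6 of the 8 libraries, all but C2-AKT replicate 5 and control replicate 3. Among 6 genes known to act on Lpin1 transcription the median was 0.04, with none under 0.05 unadjusted. Ppargc1a, the coactivator PGC-1alpha, had a log2 fold change of 0.28, Srebf2 0.59, Ppara -0.09 and Creb1 0.07.

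**Figure D5:**
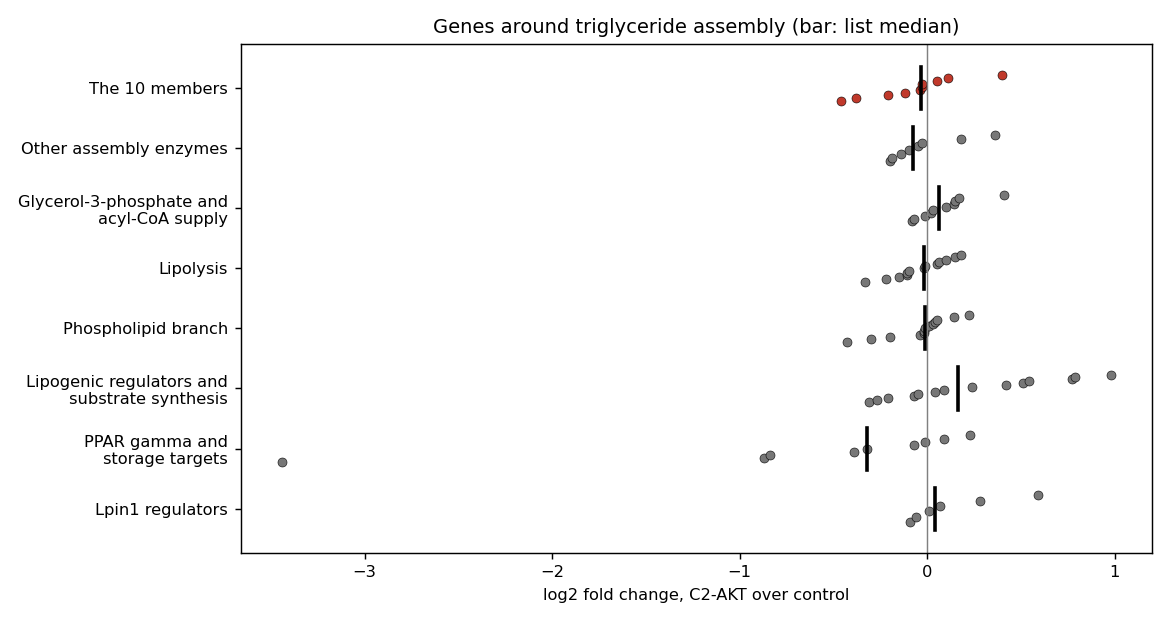
Log2 fold change of C2-AKT over control for the genes of the 10 assembly enzymes and of the 7 related lists, 1 point per gene tested, with a bar at the median of each list. The assembly enzymes lie close to 0 with a median of -0.04, the lipogenic list has a median of 0.16 and the PPAR gamma list one of -0.32.

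The members with the largest spread over the 8 libraries were Pnpla3, Mogat1 and Lpin1, with a highest library 5.00-fold, 2.79-fold and 2.69-fold above the lowest. For each, the genes of most similar pattern were found by the mean absolute difference of centred log2 CPM over the 8 libraries, among genes that averaged 1 CPM or more. For Lpin1 these were Antxr1, Loxl1 and Tob1, with differences of 0.093, 0.114 and 0.128, where Lpin1 itself deviated from its mean by 0.318. For Mogat1 they were Isg20, Mbnl2 and Glt8d1, with 0.174, 0.174 and 0.178, against its own deviation of 0.377. For Pnpla3 they were Papss1, Entpd7 and Sdf2l1, with 0.226, 0.234 and 0.236, against 0.539. All these values rest on the same 8 libraries.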

How the data were processed

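Liver RNA of 8 mouse libraries was measured by RNA sequencing, 4 per genotype. For every gene and library the deposited table holds a whole-number estimated count, a TPM and an FPKM, the last 2 being the authors' values per transcript length and per library, per the file headers. The submitters' processing notes name HISAT2 2.1.0, StringTie 2.1.3b, bcl2fastq 2.20.0 and Trimmomatic, and the builds mm10 and GRCm38. The sources used here give neither strand nor counting settings, and reads of near-identical or overlapping genes can be shared between them.

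Counts were fitted with edgeR 4.0.16 in R 4.3.3, after filterByExpr at default settings and TMM scaling, by a two-sided quasi-likelihood test of C2-AKT over control without a covariate, with Benjamini-Hochberg adjustment over 15686 genes and a threshold of 0.05. The alternatives were DESeq2 1.42.0, limma 3.58.1 (voom and log2 of FPKM or TPM plus a pseudocount), other filters and scalings, title endings, a replicate block and leaving out each library. The 10 members, the pathway and marker lists and the rule for naming genes were chosen with earlier results of these data known. That rule names all 10 members, up to 4 genes per list by unadjusted p, and 3 genes of most similar pattern for each of the 3 most variable members. Further genes of the lipogenic and PPAR gamma lists are given beside them. Precision is set by 4 libraries per group of 51.4 to 63.8 M counts. Replicate numbers occur in both groups, but the labels do not say whether they pair libraries, and the main fit used no pairing. Promoter windows came from RefSeq, with no entry matched for Gpat4, Dgat1 and Dgat2.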

Additional observations from a re-analysis of the deposited data

Results flagged for a closer look

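A library stood far from the others of its group in 8 of 44 groups of 4 libraries examined, by a gap to its nearest neighbour that took up nearly all of the group's range. Chance flags about 1 in 20 groups, and several of the 8 share a library. In control livers the lowest library, replicate 5, stood apart in Agpat3 (173.7 CPM), in Dgat2 (208.8 CPM), in the summed glycerol-3-phosphate route (857.3 CPM) and in the summed last step (223.1 CPM). That library has no title ending. In C2-AKT livers Lpin1 was low in replicate 3 at 18.96 CPM, and the ratio of Agpat2 to Agpat3 in TPM was high in replicate 2 at 3.554, the C2-AKT library with no title ending. Pancreatic acinar markers summed to 91990 CPM of all counts in C2-AKT replicate 5. Stellate cell markers summed to 280.5 CPM in control replicate 4, within the C2-AKT range.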

How the results depend on the processing

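Of 206 values of the 10 members under alternative settings, 189 kept their direction, 17 turned it and 0 crossed the threshold, with adjusted p-values from 0.579 to 1.0. All 17 that turned belong to Agpat3, Lpin2, Dgat2 and Pnpla3, whose log2 fold changes ranged from -0.05 to 0.18, from -0.17 to 0.12, from -0.21 to 0.05 and from -0.69 to 0.19 when 1 library was left out. With the title ending as a term Lpin2 was at 0.17 and Dgat2 at 0.11, and Lpin2 was at 0.02 among titles ending in _1. Dgat2 was at 0.01 in limma-voom and at 0.00 on log2(TPM + 1), and the cause was not tested. Pnpla3 was absent under filters on a mean CPM, FPKM or TPM of at least 1, so it has 17 alternatives where the others have 21. Over the whole table, genes called higher numbered 0, but 1 with library totals alone, 29 in DESeq2, 1 in the model that includes title endings and 0 to 3 with 1 library left out. Genes called lower numbered 4, but 27 in DESeq2, 17 among titles ending in _1 and 1 to 16 with 1 library left out, the extremes being without control replicate 2 and without C2-AKT replicate 2.

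Libraries with the same replicate number did not deviate together, with correlations of -0.13, -0.02, 0.07 and -0.06 for numbers 2 to 5, and no number correlated best with itself across the groups. With the replicate number as a block, 0 members were called, 0 genes were called higher and 4 lower over the whole table, and Dgat2 was at 0.00. With 4 libraries per group, a 2-fold lower level of Mogat1 or Pnpla3 lies within the 95% interval, and for Pnpla3 the 11 to 54 counts per library also limit the precision.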
